A study of Rattus norvegicus with 325 samples.

Results

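Insulin-like growth factor 2 (Igf2), the IGF1 receptor (Igf1r) and 5 IGF binding protein genes (Igfbp3, Igfbp4, Igfbp5, Igfbp6 and Igfbp7) were followed across 4 rat muscles and 7 ages. The genes were chosen by symbol, and all 7 members were found among the 17315 distinct symbols of the count files. Igf2 transcripts were higher at 27 than at 6 months in all 4 muscles, by 2.98-fold in the diaphragm, 3.3-fold in the soleus, 7.25-fold in the tibialis anterior and 9.82-fold in the gastrocnemius. Igfbp5 rose 2.05-fold to 3.12-fold in the 3 limb muscles, and its change in the diaphragm was 0.951-fold and did not pass the test. Igfbp4 was called higher in the soleus, Igf1r higher in the tibialis anterior, and Igfbp6 lower in the gastrocnemius. These calls, and that of Igfbp5 in the soleus, ended with a covariate for the spread between libraries. Igf1r was also higher in the other muscles, where its change passed the adjusted p and stayed under 1.5-fold. No member other than Igf2 was called in the diaphragm at 27 months.

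IGF1 and IGF2 are secreted peptides that signal through the IGF1 receptor, a tyrosine kinase at the cell surface that acts through insulin receptor substrates, PI3 kinase and Akt and promotes growth and differentiation of muscle cells. Igf2 is an imprinted gene with high expression before birth, and in cultured myoblasts it is made during differentiation. The binding proteins hold IGFs in the circulation and in the matrix and can either restrain the ligands or carry them to cells. Igfbp7 is a more distant relative that binds IGFs weakly and is abundant in blood vessels.

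The series holds 325 RNA sequencing libraries from male rats of the outbred Sprague Dawley strain, taken from the diaphragm (83 libraries), gastrocnemius (73), soleus (84) and tibialis anterior (85). The rats were 6, 9, 12, 18, 21, 24 or 27 months old and the labels name no treatment. Each of the 28 groups of 1 muscle and 1 age held 9 to 13 libraries. Which libraries share an animal is not given in the labels, and p-values measure the spread between libraries. Tissues of an age were taken on a single day, and the day cannot be told apart from the age.

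Libraries held 17.6 to 85.3 M counts (median 31.9 M), and the lowest count of any member in any library was 145. The slow myosin Myh7 had its highest median in the soleus (53200 CPM, a unit that divides counts by the scaled library total) and its lowest in the tibialis anterior (1920 CPM), and the fast myosin Myh4 had 15.9 and 68200 CPM, as the muscle labels say. By the identification numbers in the labels the libraries fall into 3 runs of numbers, with all 73 gastrocnemius libraries in a run of their own and 39 libraries in a further run. The latter include every 12-month library of the other muscles, so a difference at 12 months there, and any difference between the gastrocnemius and another muscle, cannot be told apart from the run. Transcripts of 6 liver genes reached 1610 summed CPM in a 6-month and 2240 in a 27-month soleus library, against medians of 106 and 2.35 CPM. They also reached 354 CPM in a 27-month tibialis anterior library (median 0.943) and 122 CPM in a 27-month gastrocnemius library (median 0.6). In the tibialis anterior at 18 months 5 of 5 liver genes tested were called higher, against 5.45% of all genes called. In the gastrocnemius at 21 months it was 2 of 2, against 5.81%. In the soleus at 27 months 3 of 6 were called lower, against 15.0%. With the liver score in the fit, each count of members called at 27 months was the same, and the Igf2 change in the soleus was 1.63 on the log2 scale.

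The promoters of Igf2, Igf1r and Igfbp5 are shown because Igf2 and Igfbp5 had the largest rises of the members at 27 months and Igf1r encodes the receptor. Each sequence is the 250 bases before a start site of RefSeq in build GRCr8. The authors counted reads on another build, and a count per gene does not separate start sites. Capitals mark 3 motifs, each searched on both strands. Myogenic factors are among those that bind forms of the E-box CANNTG, and binding was not tested here. The GC box was searched as the letters GGGCGG. A run like the TATA box was searched as the letters ATAAAA. They do not overlap in these windows.
Igf2 start site 1 (chr1:207253981-207254230, minus strand): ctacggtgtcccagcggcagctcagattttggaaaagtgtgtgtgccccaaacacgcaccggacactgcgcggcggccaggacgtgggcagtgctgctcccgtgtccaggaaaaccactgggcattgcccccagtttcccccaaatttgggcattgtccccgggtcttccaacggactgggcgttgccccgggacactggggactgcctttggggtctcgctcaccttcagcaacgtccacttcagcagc
Igf2 start site 2 (chr1:207250476-207250725, minus strand): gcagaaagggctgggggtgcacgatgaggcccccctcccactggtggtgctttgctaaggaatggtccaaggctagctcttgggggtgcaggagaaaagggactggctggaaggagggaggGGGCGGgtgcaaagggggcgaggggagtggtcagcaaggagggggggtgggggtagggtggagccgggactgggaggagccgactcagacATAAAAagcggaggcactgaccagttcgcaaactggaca
Igf1r (chr1:130959747-130959996, plus strand): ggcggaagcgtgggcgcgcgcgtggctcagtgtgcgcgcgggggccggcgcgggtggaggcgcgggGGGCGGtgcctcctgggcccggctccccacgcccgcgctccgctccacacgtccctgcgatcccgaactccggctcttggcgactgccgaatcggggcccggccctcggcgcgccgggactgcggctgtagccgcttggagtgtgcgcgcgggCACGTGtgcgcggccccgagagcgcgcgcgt
Igfbp5 (chr9:81914188-81914437, minus strand): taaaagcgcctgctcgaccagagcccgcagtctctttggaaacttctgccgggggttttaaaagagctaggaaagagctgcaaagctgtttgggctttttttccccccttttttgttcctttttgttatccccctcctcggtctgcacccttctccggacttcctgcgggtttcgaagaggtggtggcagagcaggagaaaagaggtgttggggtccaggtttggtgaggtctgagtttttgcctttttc
The listed Igf2 start sites differed in these letters. Start site 1 held none of the 3 motifs, and start site 2 held GGGCGG 129 bases and ATAAAA 39 bases before the start. The Igf1r window held CANNTG at 31 bases and GGGCGG at 184 bases before the start, and the Igfbp5 window held none. Of 33469 RefSeq promoter windows of the same length, 65.5% held CANNTG, 30.5% GGGCGG and 18.6% ATAAAA, so these matches are common. GC content was 62.4% and 63.6% in the Igf2 windows, 79.6% in Igf1r and 51.6% in Igfbp5.

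Igf2 is the ligand among the members. Levels are log2 CPM after TMM scaling within a muscle, changes are fitted log2 differences from 6 months with their standard error (SE), and calls required an adjusted p (Benjamini-Hochberg, limma-voom) under 0.05 together with more than a 1.5-fold change. In the gastrocnemius, Igf2 lay between 6.77 and 7.15 (median 7.0) in the 10 libraries of 6 months and between 9.50 and 11.14 (median 10.27) in the 11 libraries of 27 months. The groups did not overlap, and the change was 3.30 ± 0.17 (SE; adjusted p = 6.6e-26). In the tibialis anterior the 12 libraries of 6 months lay between 7.16 and 7.70 (median 7.41) and the 12 of 27 months between 8.95 and 11.53 (median 10.12). The change there was 2.86 ± 0.21 (SE; adjusted p = 3.2e-21), again with no overlap.

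The fitted changes of the soleus and the diaphragm were smaller. In the soleus Igf2 ranged from 7.92 to 8.26 (median 8.08, n = 12) at 6 months and from 9.06 to 10.60 (median 9.77, n = 12) at 27 months, a change of 1.72 ± 0.16 (SE; adjusted p = 3.7e-15 by limma). In the diaphragm it ranged from 7.72 to 8.07 (median 7.87, n = 12) and from 8.72 to 10.38 (median 9.25, n = 12), a change of 1.58 ± 0.11 (SE; adjusted p = 2.4e-20 by limma). Every 27-month library lay above every 6-month library in both muscles. Over all genes tested, every 27-month library lay above every 6-month library for 1.06% of genes (diaphragm), 6.88% (gastrocnemius), 2.46% (soleus) and 9.57% (tibialis anterior). Igf2 was thus among the 162 genes called higher at 27 months in all 4 muscles, 1.41% of the 11517 genes tested in each of them.

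Igf2 passed the call at different ages in the muscles, and the difference in timing was not tested. At 9 and 12 months it was not called in any muscle, with changes of 0.03 to 0.51, although the 12-month change of the diaphragm (0.41) passed the adjusted p (0.017 by limma). At 18 months the gastrocnemius was called (0.96 ± 0.16; adjusted p = 1.9e-05 by limma). The diaphragm had a change of 0.58, which at 1.49-fold fell just short of the fold required (adjusted p = 6.1e-05 by limma), and all 12 of its libraries lay above every 6-month library, as for 0.133% of all genes tested there. In the gastrocnemius all 11 did, as for 0.742% of genes. The soleus (0.37, adjusted p = 0.0786 by limma) and tibialis anterior (0.39, adjusted p = 0.0989 by limma) passed neither threshold. From 21 months it was called in all 4 muscles, with 21-month changes of 0.67 (diaphragm), 1.49 (gastrocnemius), 0.99 (soleus) and 0.97 (tibialis anterior). In the gastrocnemius the median went from 342 CPM at 21 months to 898 CPM at 24 months and 1240 CPM at 27 months. In the diaphragm the corresponding medians were 372, 437 and 609 CPM.

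**Figure D1:**
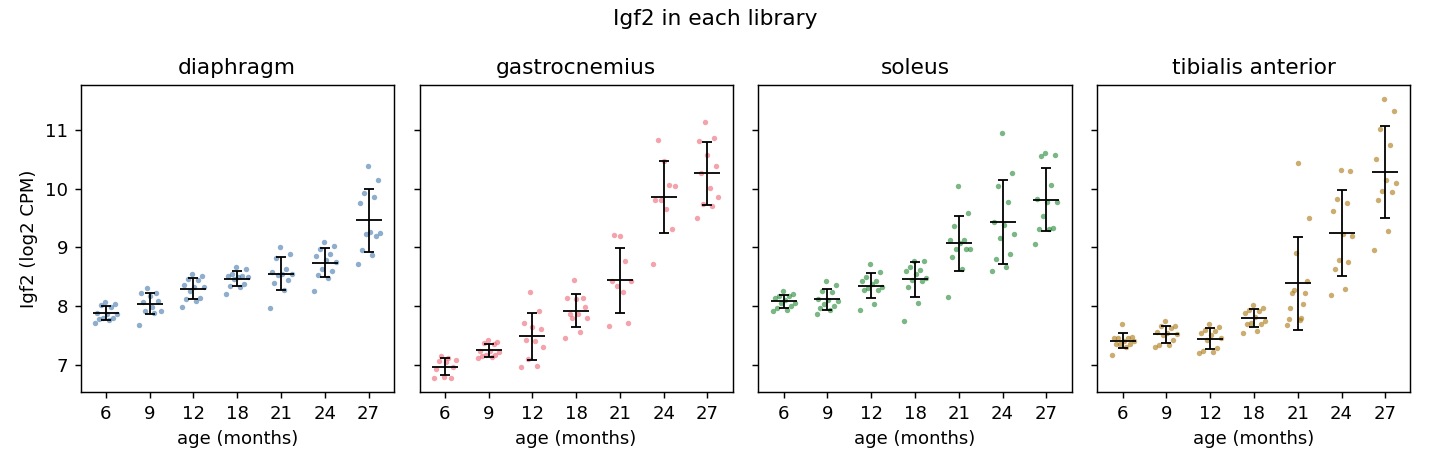
Igf2 level in log2 CPM (y axis) by age in months (x axis) in 4 muscles. Each point is a library, and bars give the mean and SD of a group. The gastrocnemius goes from a median of 7.0 at 6 months to 10.27 at 27 months and the diaphragm from 7.87 to 9.25, and the points spread more at late ages.

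The spread of Igf2 between libraries of a group was also larger at late ages. The SD was 0.11 to 0.15 log2 units at 6 months and 0.53 to 0.78 at 27 months across the muscles. A larger SD at 27 months was not particular to Igf2. It was found in 4 of 4 muscles for Igf1r, Igfbp3, Igfbp4 and Igfbp5, and in 3 of 4 for Igfbp6 and Igfbp7. Single libraries lay far above their group. In the tibialis anterior at 21 months the library of replicate 7 had 10.43, the next had 9.50 and the median was 8.22 (n = 13). The same library ranked highest of its group for Igf1r (5.52, median 4.88), Igfbp4 (4.68, median 4.46), Igfbp5 (8.02, median 7.19) and Igfbp7 (6.36, median 6.08), and lowest for Igfbp3 (3.42, median 3.92). Igfbp6 in that library (3.34) lay near its median of 3.36. The 8 transcripts of the denervated fibre list summed to 1930 CPM there, against a median of 246. Satellite cell and myoblast transcripts summed to 310 CPM against 130, and H19, a neighbour of Igf2, had 13.46 against 12.19. These sums and H19 were also the highest of the group. In the soleus at 24 months the library of replicate 6 had the highest Igf2 (10.95, median 9.30), Igfbp4 (6.58, median 5.93) and Igfbp7 (7.13, median 6.79). It was not the highest for Igfbp5 (8.45, median 7.60), Igf1r (5.61, median 5.57), Igfbp3 (4.42, median 4.24) or Igfbp6 (5.42, median 5.27). Its denervated fibre sum was 4750 CPM against a median of 789, and its satellite cell and myoblast sum 292 against 136. Both sums and its H19 level (13.18, median 11.70) were the highest of the group. Both libraries were chosen after their values were seen.

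Entering the leading axis of spread between libraries of the same age as a covariate, a score that was computed without the members and that can also differ between ages, gave Igf2 changes at 27 months of 1.62 (diaphragm), 3.17 (gastrocnemius), 0.96 (soleus) and 0.93 (tibialis anterior), all still called. Scaling by total counts in place of TMM moved the median change of all genes by 0.04 (diaphragm), 0.28 (gastrocnemius), 0.15 (soleus) and 0.32 (tibialis anterior). Changes are therefore stated relative to the bulk of genes.

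Igf1r, the receptor for both ligands, had small differences. Its SD within a group was 0.08 to 0.1 log2 units at 6 months and 0.14 to 0.2 at 27 months. Tibialis anterior libraries ranged from 4.56 to 4.94 (median 4.75) at 6 months and from 5.18 to 5.81 (median 5.41) at 27 months (n = 12 each), and it rose by 0.69 ± 0.07 (SE; adjusted p = 3.9e-15 by limma). In the soleus it ranged from 5.05 to 5.36 and from 5.48 to 6.23, with a change of 0.57 ± 0.05 that passed the adjusted p and fell just short of 1.5-fold (1.49-fold). The gastrocnemius (0.49 ± 0.06) and the diaphragm (0.36 ± 0.06) also passed the adjusted p alone. Although only 1 of 4 changes was called, the libraries of 27 and 6 months did not overlap in any muscle. Over all genes tested, every 27-month library lay above every 6-month library for 1.06% (diaphragm), 6.88% (gastrocnemius), 2.46% (soleus) and 9.57% (tibialis anterior). The tibialis anterior call ended with the library axis as a covariate (0.21, adjusted p = 0.0384 by limma), and under total-count scaling the changes of the gastrocnemius (0.77) and soleus (0.72) were called as well. Before 27 months no change of Igf1r was called, the highest being 0.48 in the gastrocnemius at 24 months.

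Igfbp5, a binding protein that is abundant in muscle and binds to the matrix, rose in the limb muscles. In the tibialis anterior it ranged from 6.31 to 7.07 (median 6.69) at 6 months and from 7.56 to 8.85 (median 8.46) at 27 months (n = 12 each), a change of 1.64 ± 0.12 (SE; adjusted p = 4.4e-20 by limma). In the soleus it went from 6.66 to 7.27 (median 7.04) to 7.67 to 9.65 (median 8.75; n = 12 each), a change of 1.58 ± 0.13 (SE; adjusted p = 5.3e-18 by limma). In the gastrocnemius it ranged from 7.17 to 7.59 (median 7.49, n = 10) at 6 months and from 8.05 to 8.89 (median 8.52, n = 11) at 27 months, a change of 1.04 ± 0.10 (SE; adjusted p = 4.6e-14 by limma). In each limb muscle every 27-month library lay above every 6-month library. The same held for 6.88% (gastrocnemius), 2.46% (soleus) and 9.57% (tibialis anterior) of all genes tested.

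The diaphragm stood apart for this gene. There Igfbp5 ranged from 7.90 to 8.51 (median 8.26) at 6 months and from 7.91 to 8.40 (median 8.12) at 27 months (n = 12 each), and all 27-month libraries lay within the range of 6 months. The change was -0.07 ± 0.07 (SE; adjusted p = 0.429 by limma). At 24 months Igfbp5 was called in the gastrocnemius (0.92), soleus (0.86) and tibialis anterior (1.33), and at 21 months in the tibialis anterior (0.59, a 1.5-fold change at the limit). The call in the soleus at 27 months ended with the library axis as a covariate, where the change was 0.58 and just under 1.5-fold.

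**Figure D2:**
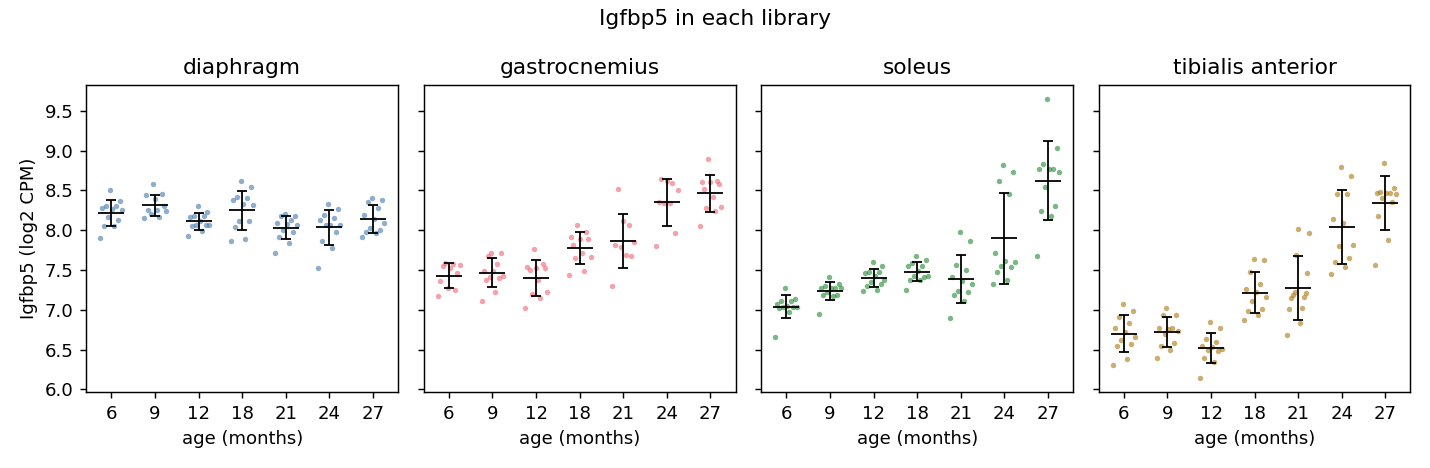
Igfbp5 level in log2 CPM (y axis) by age in months (x axis) in 4 muscles, with a point per library and bars for the mean and SD. The limb muscles climb from medians of 6.69 to 7.49 at 6 months to medians of 8.46 to 8.75 at 27 months, and the diaphragm stays between group medians of 8.07 and 8.32.

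Igfbp4, which restrains IGF action and is cleaved by the protease Pappa, rose at 27 months in the soleus. Its libraries ranged from 5.26 to 5.91 (median 5.67) at 6 months and from 5.96 to 6.96 (median 6.49) at 27 months (n = 12 each), without overlap, a change of 0.77 ± 0.09 (SE; adjusted p = 4.5e-11 by limma). Of all genes tested in the soleus, 2.46% likewise had every 27-month library above every 6-month library. In the tibialis anterior the change was 0.48 ± 0.10, and 8 of 12 libraries lay above the 6-month range. It was 0.14 in the gastrocnemius and 0.08 in the diaphragm. At 24 months the soleus change was 0.26 and was not called, so most of the difference lay between the last 2 ages. With the library axis as a covariate the soleus change was 0.19 (adjusted p = 0.2 by limma), and that of the tibialis anterior turned to -0.21.

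Igfbp3, the main carrier of IGFs in blood, had negative fitted changes at 27 months in all 4 muscles, of which none reached 1.5-fold and 3 passed the adjusted p. Libraries of the tibialis anterior ranged from 4.02 to 4.48 (median 4.23) at 6 months and from 3.17 to 4.12 (median 3.66) at 27 months (n = 12 each), and 11 of 12 old libraries lay below every young one. The change was -0.55 ± 0.10 (SE; adjusted p = 1.1e-06 by limma). It was -0.48 ± 0.09 in the gastrocnemius and -0.23 ± 0.10 in the soleus, both past the adjusted p, and -0.29 ± 0.19 (adjusted p = 0.215 by limma) in the diaphragm. Under total-count scaling these changes were -0.23, -0.20, -0.10 and -0.25. In the soleus the lowest value came at 21 months (-0.55), and against 9 in place of 6 months the 27-month change there was 0.01. The change passed 1.5-fold under other alternatives, at -0.62 with sample quality weights (gastrocnemius) and, with the library axis as a covariate, at -0.7 (soleus) and -0.63 (tibialis anterior). In the tibialis anterior it was also past 1.5-fold against 9 months (-0.65) and without replicate 2 of 27 months (-0.59).

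Igfbp6, which prefers IGF2 over IGF1, fell in the gastrocnemius. It ranged from 4.98 to 5.72 (median 5.19, n = 10) at 6 months and from 4.07 to 5.18 (median 4.63, n = 11) at 27 months, with 10 of 11 old libraries below every young one. The change was -0.66 ± 0.13 (SE; adjusted p = 1.2e-05 by limma), and it was already -0.69 at 21 months and -0.80 at 24 months. The changes in the diaphragm (-0.36 ± 0.17), soleus (0.28 ± 0.09) and tibialis anterior (0.09 ± 0.12) were not called. The call in the gastrocnemius ended under total-count scaling (-0.38) and with the library axis as a covariate (-0.40).

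Igfbp7, the last of the members, had changes at 27 months of -0.15 ± 0.05 (diaphragm), -0.01 ± 0.06 (gastrocnemius), 0.13 ± 0.06 (soleus) and 0.17 ± 0.06 (tibialis anterior), and none was called at any age. Under total-count scaling the gastrocnemius change was 0.27.

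**Figure D3:**
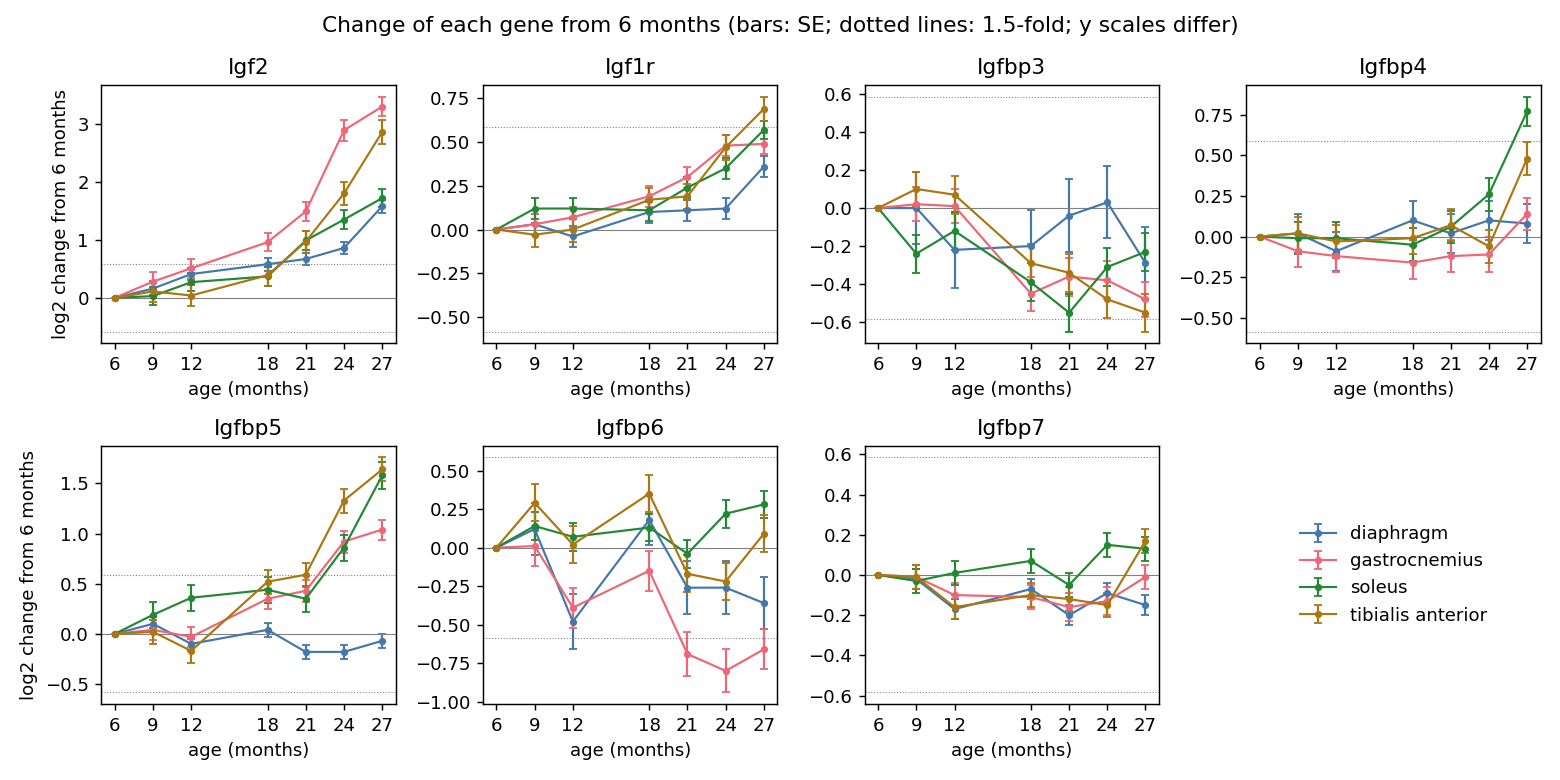
Log2 change from 6 months (y axis, with a scale of its own in each panel) by age in months (x axis) for the 7 genes, with a line per muscle, bars for the SE and dotted lines at 1.5-fold. Igf2 reaches 3.30 in the gastrocnemius and 1.58 in the diaphragm at 27 months, and Igfbp5 separates the limb muscles (1.04 to 1.64) from the diaphragm (-0.07).

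Counted over the members at 27 months, 1 of 7 was called in the diaphragm, where 7.52% of all genes tested were called. In the gastrocnemius it was 3 of 7 against 22.8%, in the soleus 3 of 7 against 15.0%, and in the tibialis anterior 3 of 7 against 27.6%. The median change of the 7 members was -0.07, 0.14, 0.57 and 0.48, beside a median over all genes of 0.00, 0.04, 0.02 and 0.02. At 24 months the members called were Igf2 in the diaphragm (2.68% of all genes called), Igf2, Igfbp5 and Igfbp6 in the gastrocnemius (18.8%), and Igf2 and Igfbp5 in the soleus (6.51%) and the tibialis anterior (14.5%). At 21 months they were Igf2 in the diaphragm (1.68%) and soleus (2.61%), Igf2 and Igfbp6 in the gastrocnemius (5.81%), and Igf2 and Igfbp5 in the tibialis anterior (6.47%). At 18 months Igf2 in the gastrocnemius was the only call (4.32%), as no member was called in the other muscles (2.25% in the diaphragm, 2.84% in the soleus, 5.45% in the tibialis anterior). No member was called at 9 months (0.108%, 0.143%, 0.123% and 0.00851% of all genes) or at 12 months (0.532%, 0.885%, 0.353% and 0.196%) in limma-voom, where 3 and 8 of 28 changes had an unadjusted p under 0.05.

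Changes were then compared between muscles in a fit of all 28 groups. For the change from 6 to 27 months there were 42 such differences (7 genes in 6 pairs of muscles), and 12 were called. The Igf2 change in the gastrocnemius was larger than in the diaphragm by 1.67 ± 0.24 (SE) and than in the soleus (soleus minus gastrocnemius -1.58 ± 0.24), and that of the tibialis anterior was larger by 1.24 ± 0.23 and 1.15 ± 0.24. The fast limb muscles were not told apart (tibialis anterior minus gastrocnemius -0.43, 95% interval -0.91 to 0.05), nor were the soleus and the diaphragm (0.09, -0.37 to 0.55). For Igfbp5 every limb muscle differed from the diaphragm, by 1.06 (gastrocnemius), 1.59 (soleus) and 1.67 (tibialis anterior), and the tibialis anterior exceeded the gastrocnemius by 0.61. Igfbp4 changed more in the soleus than in the diaphragm (0.63) and the gastrocnemius (0.61). For Igfbp6 the difference was 0.93 for the soleus minus the gastrocnemius and 0.75 for the tibialis anterior minus the gastrocnemius. There the gastrocnemius had the fall (-0.66), while the soleus (0.28) and tibialis anterior (0.09) changes were not called. With the leading library axis of each muscle as a covariate in this fit, an alternative chosen after the data were seen, several of these differences moved. The Igf2 change in the tibialis anterior was then smaller than in the diaphragm (-0.72, adjusted p = 0.0468 by limma) and the gastrocnemius (-2.25) and did not pass against the soleus (-0.04, adjusted p = 0.964 by limma), whereas the gastrocnemius still exceeded the diaphragm (1.53) and the soleus (soleus minus gastrocnemius -2.21). Igfbp5 still differed between each limb muscle and the diaphragm (1.12, 0.61 and 1.11), with -0.01 for the tibialis anterior minus the gastrocnemius. The Igfbp4 differences were 0.34 (soleus minus diaphragm) and -0.06 (soleus minus gastrocnemius) and no longer called, nor were those of Igfbp6 from the gastrocnemius (0.58 and 0.3), while Igfbp6 passed for the soleus minus the diaphragm (0.74). Without this covariate, Igf1r, Igfbp3 and Igfbp7 had no called difference, and for Igf1r the largest was 0.28 (95% interval 0.11 to 0.46) between the tibialis anterior and the diaphragm. Among all genes tested the share called was 21.6% for the gastrocnemius and diaphragm, 11.9% for the soleus and diaphragm, 20.3% for the tibialis anterior and diaphragm, 14.5% for the soleus and gastrocnemius, 7.32% for the tibialis anterior and gastrocnemius, and 15.8% for the tibialis anterior and soleus.

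The order of the muscles by mean level was not the same at 6 and 27 months for any member. For Igf1r and Igfbp7 no difference between muscles was called at either age. Igf2 and Igfbp5 are described first, and Igfbp3, Igfbp4 and Igfbp6 further below. With all muscles scaled together, mean Igf2 at 6 months was 7.93 ± 0.11 (SD, n = 12) in the soleus, 7.71 ± 0.12 (n = 12) in the diaphragm, 7.60 ± 0.13 (n = 12) in the tibialis anterior and 7.12 ± 0.12 (n = 10) in the gastrocnemius. The gastrocnemius was lower than the soleus (soleus minus gastrocnemius 0.81) and the diaphragm (gastrocnemius minus diaphragm -0.59). The neighbours soleus and diaphragm (soleus minus diaphragm 0.21) and diaphragm and tibialis anterior (tibialis anterior minus diaphragm -0.11) did not differ beyond their error, and the tibialis anterior exceeded the gastrocnemius by 0.48, under 1.5-fold. At 27 months the means were 10.47 ± 0.79 (n = 12) in the tibialis anterior, 10.41 ± 0.54 (n = 11) in the gastrocnemius, 9.64 ± 0.53 (n = 12) in the soleus and 9.33 ± 0.52 (n = 12) in the diaphragm. Both fast limb muscles were then above the diaphragm (by 1.13 and 1.08) and the soleus (tibialis anterior minus soleus 0.83, soleus minus gastrocnemius -0.78), and did not differ from each other (0.05). Under total-count scaling the differences from the soleus were no longer called (tibialis anterior minus soleus 0.58, soleus minus gastrocnemius -0.5).

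Igfbp5 was highest in the diaphragm at 6 months. Its mean there was 8.04 ± 0.16 (SD, n = 12), against 7.59 ± 0.16 (n = 10) in the gastrocnemius, 6.89 ± 0.13 (n = 12) in the soleus and 6.89 ± 0.23 (n = 12) in the tibialis anterior. At 27 months the diaphragm was lowest, with 8.01 ± 0.17 against 8.61 ± 0.24, 8.45 ± 0.50 and 8.53 ± 0.34, and of these differences that of the gastrocnemius (0.60) was called, though not under total-count scaling (0.46). The limb muscles did not differ from one another at that age, with differences of -0.17 to 0.08.

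Igfbp3, Igfbp4 and Igfbp6 had called differences between muscles at both ages, and the highest mean of Igfbp4 and Igfbp6 moved to the soleus. Igfbp3 was higher in the diaphragm than in each limb muscle at 6 months, with differences (limb muscle minus diaphragm) of -0.97 to -1.06, and at 27 months of -1.06 to -1.28. Igfbp4 was lowest in the tibialis anterior at 6 months (4.56 ± 0.19, SD, n = 12) and highest in the diaphragm (5.96 ± 0.24, n = 12). At 27 months its highest mean was in the soleus (6.27 ± 0.33, n = 12), which did not differ from the diaphragm (0.19, 95% interval -0.01 to 0.38) and exceeded the gastrocnemius by 1.18. Igfbp6 at 6 months was highest in the gastrocnemius (5.45 ± 0.29, n = 10), then the soleus (4.88 ± 0.15), the diaphragm (4.53 ± 0.34) and the tibialis anterior (3.73 ± 0.34). At 27 months the soleus (5.14 ± 0.26) had the highest mean and the tibialis anterior (3.84 ± 0.32) still the lowest. Igf1r and Igfbp7 had no called difference between muscles at either age.

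In all, 16 of 42 level differences were called at 6 months and 15 of 42 at 27 months. Among all genes tested the share called at 6 months was 37.3% for the gastrocnemius and diaphragm (4 of 7 members), 23.9% for the soleus and diaphragm (2), 35.1% for the tibialis anterior and diaphragm (4), 45.4% for the soleus and gastrocnemius (2), 17.3% for the tibialis anterior and gastrocnemius (2) and 42.9% for the tibialis anterior and soleus (2). At 27 months the shares were 32.3% (4 members), 27.9% (2), 27.4% (3), 34.0% (2), 10.4% (1) and 31.7% (3) in the same order.

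The shape over the 7 ages was classed by the Bayesian information criterion as no trend, linear or logistic. A trend was found for 2 of 7 diaphragm members (29.6% of all genes), 5 gastrocnemius members (55.1%), 5 soleus members (40.2%) and 6 tibialis anterior members (64.9%). Igf2 followed a line in the diaphragm, rising by 0.73 log2 units per year, and a late logistic curve elsewhere, with inflections at 22.25 (gastrocnemius), 21.75 (soleus) and 24.75 months (tibialis anterior). Igfbp5 was late and rising in the limb muscles, with inflections at 21.5, 24.75 and 22.5 months in the same order, and had no trend in the diaphragm. Igf1r was linear in the diaphragm and gastrocnemius and late in the soleus (26 months) and tibialis anterior (24.5 months). Igfbp3 followed a falling line in the limb muscles, with slopes of -0.33, -0.16 and -0.38 log2 units per year in the gastrocnemius, soleus and tibialis anterior, and Igfbp6 one of -0.45 in the gastrocnemius. Igfbp4 was late and rising in the soleus (25.75 months) and tibialis anterior (27 months), and Igfbp7 in the tibialis anterior (27 months). A value of 27 months is the last age and the limit of the search, so it does not place an inflection. The Igfbp7 change there was -0.15 at 24 months and 0.17 at 27 months, and neither was called.

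Genes around the members were read from 3 lists. In the list of the IGF axis outside the cell (13 genes, of which 9 to 11 were tested in a muscle), the numbers called at 27 months were 1 of 11 (diaphragm), 3 of 10 (gastrocnemius), 1 of 9 (soleus) and 4 of 10 (tibialis anterior), against 7.52%, 22.8%, 15.0% and 27.6% of all genes. Counts so near those shares are no result about the list, and its genes are described singly. Igf1, the other ligand, was lower in the diaphragm by -0.67 ± 0.12, with a median of 45.2 CPM at 6 months and 27.8 CPM at 27 months, and its changes in the limb muscles were -0.23 to 0.25 and were not called. Igf2r, which takes up IGF2 for degradation, rose in the soleus by 0.66 ± 0.06, and its changes were 0.46 in the gastrocnemius, 0.44 in the tibialis anterior and 0.17 in the diaphragm. The insulin receptor Insr had changes of -0.19 to 0.27 and no call.

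Igfbp2, another binding protein and the neighbour of Igfbp5 on the chromosome, rose in the fast limb muscles from a low level. Its tibialis anterior median was 0.116 CPM at 6 months and 2.08 CPM at 27 months, a fitted change of 4.55 ± 0.54, and in the gastrocnemius 0.147 and 0.891 CPM, a change of 2.68 ± 0.37. In the diaphragm it was 1.58 and 1.68 CPM (0.02 ± 0.44), and in the soleus it stayed under the filter at medians of 0.0273 and 0.05 CPM. At so few counts the fitted change depends on the prior count. Igfals, the acid-labile subunit that joins Igfbp3 in blood, fell in the gastrocnemius (-1.38 ± 0.33) and tibialis anterior (-1.52 ± 0.37), also from under 1 CPM. Stc2, an inhibitor of Pappa, fell in the same muscles (-0.97 ± 0.17 and -0.76 ± 0.16).

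In the list of IGF signalling inside the cell (22 genes, 19 tested) the numbers were 3, 3, 2 and 4 in the same order of muscles, to be read against the same shares of all genes, and again single genes are described and not the list. Irs1, the adaptor that the receptor phosphorylates, fell in 3 muscles. Its median went from 407 to 131 CPM in the tibialis anterior (-1.67 ± 0.12), from 303 to 147 CPM in the gastrocnemius (-1.03 ± 0.13) and from 264 to 140 CPM in the diaphragm (-0.88 ± 0.09), while the soleus change was -0.16 ± 0.09. Grb10, an adaptor that restrains the receptor, fell in the tibialis anterior (-0.94 ± 0.06) and gastrocnemius (-0.62 ± 0.06). Pik3r1, the regulatory subunit of PI3 kinase, rose in the soleus (1.2 ± 0.11) and gastrocnemius (0.68 ± 0.11). Rps6kb1, a kinase downstream of mTOR, fell in the diaphragm (-0.76 ± 0.11) and tibialis anterior (-0.60 ± 0.10). Under total-count scaling 7 genes of this list were called in the gastrocnemius.

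In the list of imprinted growth genes (12 genes, 9 tested) 2, 4, 3 and 4 were called, all higher, beside the same shares for all genes in either direction. H19, a noncoding RNA that neighbours Igf2 and shares its imprinting control, rose in all 4 muscles. Its median went from 4740 to 10300 CPM in the diaphragm (1.26 ± 0.12), from 3920 to 10500 CPM in the gastrocnemius (1.45 ± 0.15), from 1050 to 5380 CPM in the soleus (2.34 ± 0.18) and from 1850 to 9610 CPM in the tibialis anterior (2.49 ± 0.18). Its fitted change was largest in the tibialis anterior, and that of Igf2 in the gastrocnemius. Cdkn1c, an inhibitor of the cell cycle in the same imprinted region, also rose in all 4 muscles, by 0.59 ± 0.09, 1.69 ± 0.17, 1.85 ± 0.17 and 1.90 ± 0.19 in the same order. Dlk1 and Peg3, imprinted genes elsewhere in the genome, rose in the gastrocnemius (0.85 ± 0.20 and 0.74 ± 0.12) and tibialis anterior (1.64 ± 0.25 and 0.99 ± 0.12).

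**Figure D4:**
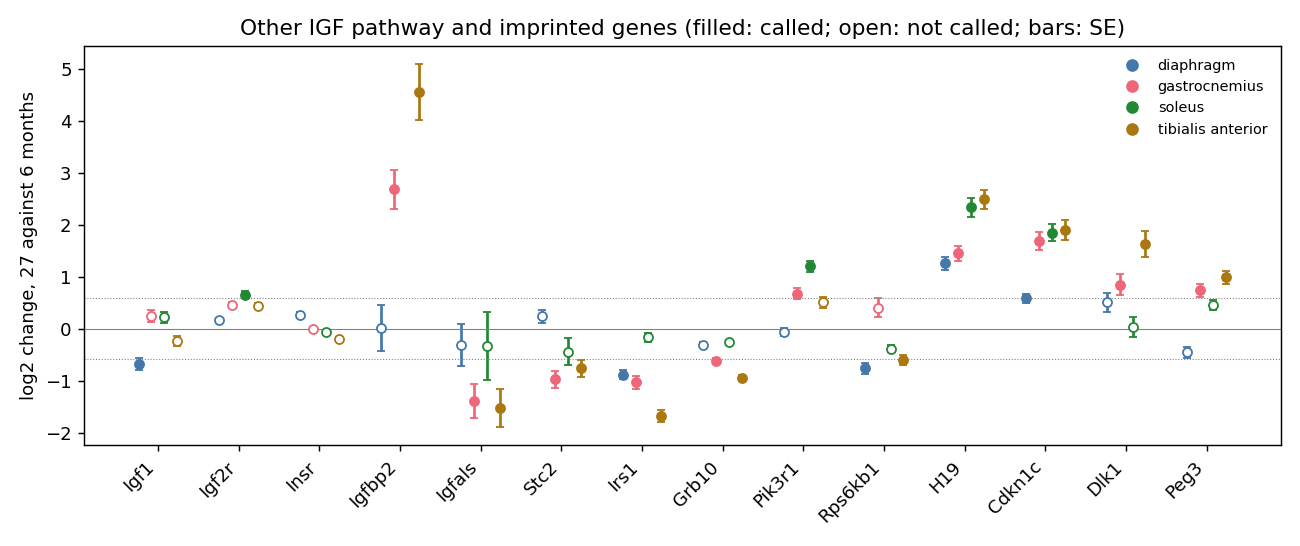
Log2 change at 27 against 6 months (y axis) of 14 genes of the IGF pathway and of imprinted genes (x axis), with a point per muscle, bars for the SE, filled points for called changes and dotted lines at 1.5-fold. H19 and Cdkn1c are filled in all 4 muscles, Igfbp2 reaches 4.55 in the tibialis anterior, and Irs1 lies at -0.88, -1.03 and -1.67 where filled.

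Markers of other cell types moved beside the members, and their part in the results was not tested. In bulk tissue fewer cells of a type and less RNA per cell cannot be told apart. All 8 genes of the denervated fibre list (receptor subunits and other genes of fibres without nerve contact) were called higher at 27 months in each muscle, and their summed CPM went from 91.5 to 132 at 6 months to 203 to 1010 at 27 months in the diaphragm, from 83.3 to 129 to 565 to 3000 in the gastrocnemius, from 411 to 713 to 737 to 4450 in the soleus and from 75.2 to 119 to 559 to 4150 in the tibialis anterior. Satellite cell and myoblast genes were called higher for 1, 4, 3 and 3 of 7 genes, in the order diaphragm, gastrocnemius, soleus, tibialis anterior. The median change of this list was 0.06, 0.70, -0.05 and 0.43. Of all genes tested, 7.52%, 22.8%, 15.0% and 27.6% were called in either direction. Counts near these shares are no result about a list. Macrophage genes were called higher for 0, 8, 2 and 8 of 8 genes and adipocyte genes for 0, 5, 5 and 5 of 6.

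Fibroblast genes were called higher for 0, 1, 0 and 2 of 10 and lower for 4, 2, 2 and 0 in the same order. Counts of this and the following lists are to be read beside the same shares of all genes. The fibroblast sum was lower in the diaphragm, with 3320 to 5000 CPM at 6 months and 1810 to 2910 at 27 months, and in the gastrocnemius the medians were 3600 and 2160 CPM, whereas the tibialis anterior had 1630 at both ages. No endothelial gene of 10 was called higher and 0, 2, 1 and 2 were called lower, and their sum was lower at 27 months in every muscle, with medians of 1080 and 890 CPM in the diaphragm and 568 and 383 in the gastrocnemius. Tendon genes, which can come with the tissue piece, were called higher for 0, 0, 1 and 2 of 5 and lower for 1, 2, 1 and 1. Their summed medians at 6 and 27 months were 504 and 367 CPM (diaphragm), 796 and 660 (gastrocnemius), 1180 and 1880 (soleus) and 173 and 221 (tibialis anterior). Mesothelial genes, of which 4 of 7 were in the files, had summed medians of 52.1 and 37.7 CPM in the diaphragm and at most 1.27 CPM elsewhere. Of these genes Wt1 had a median of 0 counts in the 3 limb muscles, and Calb2 in the diaphragm and soleus. Mural cell genes were called higher for 0, 1, 0 and 1 of 9 and lower for 1, 2, 2 and 2, and Schwann cell genes higher for 0, 1, 1 and 2 of 7 and lower for 0, 2, 0 and 0. Fast fibre genes were called higher for 6 of 6 in the soleus and lower for 3 of 6 in both other limb muscles, and slow fibre genes lower for 1 of 6 in soleus and tibialis anterior.

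The likeness of patterns was read from the 28 group means after each muscle's own mean was taken away, over 10404 genes. Groups of a muscle share their age order, so these Pearson r are a description. Igf2 and Igf1r moved closely together (r = 0.95), as did Igf1r and Igfbp5 (0.91) and Igf2 and Igfbp5 (0.85), while Igf2 and Igfbp3 ran opposite (-0.75). Genes most like Igf2 were Mill1 (0.98), Tspan13 (0.97) and Mgmt (0.97). Most like Igf1r were Hdac4, a histone deacetylase induced in muscle without nerve contact, Lgals1 and Map3k14 (0.98 each). Igfbp5 was most like Fst (0.97), which encodes the myostatin antagonist follistatin, Erbb2 (0.96) and Ctnna1 (0.96). For Igfbp4 they were Armc9 (0.91), Fads1 (0.90) and Spon1 (0.89), for Igfbp3 Mmd (0.88), Akap2 (0.85) and Sept4 (0.85), for Igfbp6 Crispld2 (0.88), Vasn (0.87) and Npr1 (0.86), and for Igfbp7 Rarres2 (0.83), Scarf2 (0.82) and Aldh3a1 (0.80).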

How the data were processed

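Strand-specific, paired-end libraries of total RNA with ribosomal RNA removed were made from 4 muscles. The authors processed the reads in ArrayStudio (version not given in the sources used here) on the rat B6.0 reference with a gene model based on RefSeq, and the deposited values are raw counts per gene, used here as deposited. Each file held 17870 lines with 17315 distinct symbols, and the counts of 494 symbols on more than 1 line were summed, none of them a member. No 2 libraries held identical counts.

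Libraries were grouped by the muscle and age in the labels. In each muscle, genes passing filterByExpr (minimum count 10, minimum total 15) were scaled by TMM in edgeR 4.0.16 and fitted in limma 3.58.1 (voom, R 4.3.3, prior count 0.5), each age against 6 months, so the comparisons of a muscle share their 6-month libraries. Calls needed a Benjamini-Hochberg adjusted p under 0.05 over all genes tested and more than 1.5-fold. A fit over all 28 groups gave differences between muscles, with 95% intervals. It treated all libraries as independent, so its errors take no account of muscles that may come from the same rat. An alternative with libraries of 1 age and replicate number as a block gave them a correlation of 0.066. Trends needed a gain of 6 in the Bayesian information criterion and a logistic curve a further 2. The fits were tested on simulated data. Alternatives used edgeR's quasi-likelihood test, DESeq2 1.42.0, other scalings and adjustments, covariates, and sets of libraries without some of them.

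All 7 members are described. From the pathway lists, genes called at 27 months in 2 or more muscles were named, plus Igf1, Igf2r, Insr, Igfbp2 and H19. The 3 genes most like each member were taken among genes with a mean log2 CPM over 0 in all muscles. The members and lists were chosen with earlier results of these data known.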

Additional observations from a re-analysis of the deposited data

Results flagged for a closer look

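The change from 6 to 27 months differed between muscles for 4 members, by a test of the difference itself (limma, adjusted over all genes). For Igf2 the differences were 1.67 (gastrocnemius minus diaphragm), 1.24 (tibialis anterior minus diaphragm), -1.58 (soleus minus gastrocnemius) and 1.15 (tibialis anterior minus soleus). For Igfbp5 they were 1.06, 1.59 and 1.67 for the gastrocnemius, soleus and tibialis anterior minus the diaphragm, and 0.61 for the tibialis anterior minus the gastrocnemius. For Igfbp4 they were 0.63 (soleus minus diaphragm) and 0.61 (soleus minus gastrocnemius), and for Igfbp6 0.93 (soleus minus gastrocnemius) and 0.75 (tibialis anterior minus gastrocnemius). With the leading library axis of each muscle as a covariate, the Igf2 differences of the tibialis anterior were -0.72 from the diaphragm and -0.04 from the soleus, and those of the gastrocnemius 1.53 from the diaphragm and, as soleus minus gastrocnemius, -2.21. Differences that involve the gastrocnemius cannot be told apart from its separate run of identification numbers. No library lay far from the others in the 21 groups of a member and age small enough for that check, all of them gastrocnemius.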

How the results depend on the processing

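Of the counts of calls, 255 values under alternatives lay within 1.5 times the reported count and 11 did not. Under total-count scaling 7 genes of IGF signalling were called in the gastrocnemius (reported 3), and 6 members changed differently in the tibialis anterior and diaphragm (reported 2). With a Bonferroni adjustment, 2 genes of the IGF axis were called in the tibialis anterior (reported 4), 1 member differed in change between soleus and diaphragm and 0 between tibialis anterior and gastrocnemius (reported 2 each), and 1 differed in level between soleus and gastrocnemius at 27 months (reported 2). With sample quality weights 1 member differed in change between soleus and diaphragm. With the leading library axis as a covariate 2 calls were made at 9 to 24 months in the tibialis anterior (reported 4). With the axis of each muscle in the fit over all groups, an alternative chosen after seeing the data, the members that differed in change numbered 1 between soleus and gastrocnemius (reported 3), 1 between tibialis anterior and gastrocnemius (reported 2) and 0 between tibialis anterior and soleus (reported 1). Leaving out each library of 6 or 27 months in turn gave 1 to 1 members called at 27 months in the diaphragm, 3 to 3 in the gastrocnemius, 3 to 4 in the soleus and 3 to 4 in the tibialis anterior. The additional calls were Igf1r in the soleus (0.59 without the 27-month replicate 9 or 11) and Igfbp3 in the tibialis anterior (-0.59 without the 27-month replicate 2).

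Of values of single members, 1179 kept their direction and side of the threshold, 28 passed it in addition, 22 no longer passed it and 52 changed sign. The sign changes with the library axis as covariate were Igfbp4 in the diaphragm (-0.16) and tibialis anterior (-0.21), Igfbp7 in the gastrocnemius (0.04), soleus (-0.14) and tibialis anterior (-0.23) and Igfbp6 in the tibialis anterior (-0.06). In the fit over all groups with that covariate, the differences in change that turned were, for the tibialis anterior minus the diaphragm, -0.72 (Igf2), -0.07 (Igf1r), -0.08 (Igfbp4) and -0.02 (Igfbp7), for the tibialis anterior minus the soleus -0.04 (Igf2), -0.15 (Igf1r), 0.05 (Igfbp3) and -0.1 (Igfbp7), and for the tibialis anterior minus the gastrocnemius -0.33 (Igf1r), -0.48 (Igfbp4), -0.01 (Igfbp5) and -0.29 (Igfbp7). For the soleus minus the gastrocnemius they were -0.18 (Igf1r), -0.16 (Igfbp3), -0.06 (Igfbp4), -0.51 (Igfbp5) and -0.19 (Igfbp7), for the soleus minus the diaphragm -0.68 (Igf2) and -0.3 (Igfbp3), and for the gastrocnemius minus the diaphragm 0.16 (Igfbp6). Against 9 months the sign changes within muscles were Igfbp3 in the soleus (0.01) and Igfbp6 in the tibialis anterior (-0.2). Under total-count scaling Igfbp7 in the gastrocnemius was 0.27. The differences in change were then 0.05 (Igfbp3, gastrocnemius minus diaphragm), 0.02 (Igfbp3, tibialis anterior minus diaphragm) and -0.05 (Igf1r, soleus minus gastrocnemius). The 6-month level differences were 0.34 (Igfbp3, soleus minus gastrocnemius), -0.33 (Igfbp3, tibialis anterior minus soleus) and -0.4 (Igfbp5, tibialis anterior minus soleus). Those at 27 months were -0.1 (Igf1r, gastrocnemius minus diaphragm), -0.24 (Igf1r, tibialis anterior minus soleus), 0.09 (Igfbp7, soleus minus diaphragm), 0.11 (Igfbp5, soleus minus gastrocnemius) and -0.17 (Igfbp5, tibialis anterior minus soleus). The edgeR test gave 0 (Igfbp3 change, soleus minus diaphragm) and -0.01 (Igfbp3 at 6 months, tibialis anterior minus gastrocnemius). RLE size factors gave -0.01 for the latter and for Igfbp5 at 6 months (tibialis anterior minus soleus), and 0 for Igf1r at 27 months in that pair. Quality weights gave changes of -0.05 (Igfbp4, gastrocnemius minus diaphragm), -0.12 (Igfbp3, soleus minus diaphragm) and 0.05 (Igfbp3, tibialis anterior minus gastrocnemius). They gave levels of -0.03 at 6 and 0.02 at 27 months (Igfbp3, tibialis anterior minus gastrocnemius), -0.01 (Igfbp5 at 6 months, tibialis anterior minus soleus) and -0.04 (Igf1r at 27 months, tibialis anterior minus soleus). Igfbp7 in the gastrocnemius was 0.01 and 0 without the 27-month replicates 1 and 2. The cause was not tested.

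Replicate numbers were not taken to pair the libraries, since the correlation of deviations (r) was not over 0.1 in every pair of same-numbered libraries and was as low as -0.45. Same-numbered libraries were still more alike on average (mean r 0.05 to 0.12 between muscles, -0.01 to 0 for others of the age). Libraries most like their own number were 41 of 84 (soleus and tibialis anterior), 38 of 83 (diaphragm and tibialis anterior), 32 of 83 (diaphragm and soleus), 15 of 72 (diaphragm and gastrocnemius), 17 of 73 (gastrocnemius and soleus) and 18 of 73 (gastrocnemius and tibialis anterior), a hint from the data and not from the design that some numbers may be shared. Within a muscle the replicate block ties rats of different ages and cannot test sharing. With the block 1, 3, 3 and 3 members were called at 27 months, and no other member call changed. The lowest member count was 145, where counting error is largest.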

Other observations

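In the diaphragm at 27 months, the library of replicate 5, chosen after its values were seen, had the highest Igf2 (10.38 log2 CPM, median 9.25, n = 12), the highest Igf1r (5.80, median 5.65) and the highest denervated fibre sum (1010 CPM, median 268). Its H19 level of 13.94 ranked 2 of 12 (median 13.33), and its satellite cell and myoblast sum of 259 CPM was the highest (median 151). Igfbp5 in the same library was 8.03, beside a median of 8.12.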
